A study of Homo sapiens with 12 samples.

Results

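Parental Huh7 cells were compared with parental HepG2 cells, the sorafenib-sensitive counterparts of the resistant lines in the same study, to describe what distinguishes these liver cancer lines before any drug exposure. The comparison used 6 of the 12 samples of the series, 3 of each line, and no resistant sample. All 6 carry the label of hepatocellular carcinoma cells with a WT genotype and no treatment. The methods give DMEM with fetal bovine serum as the medium of the cells. The labels do not state whether the 3 samples of a line came from separate cultures, so p-values measure only the spread between these samples. Every gene with an Ensembl identifier and at least 1 FPKM (fragments normalised to exon length and to the mapped total) in at least 3 of the 6 samples was tested, which kept 12796 of 27249 genes. The reads behind a sample, calculated back from the values of genes with a single exon, numbered 16158312 to 17944473 in Huh7 and 12290135 to 15728849 in HepG2. Line, culture and library preparation cannot be told apart in this design, since each library holds 1 line.

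Huh7 was derived from a hepatocellular carcinoma. HepG2 is also labelled as hepatocellular carcinoma here, but is widely regarded as a hepatoblastoma line, with an activating mutation of NRAS and a deletion in CTNNB1 that stabilises β-catenin. Hepatocytes make most plasma proteins, lipoproteins, bile acids and cholesterol, clear drugs and ammonia, and liver cancer lines keep these functions to different degrees. The mutations are background from general knowledge, and none was read from these data.

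The samples separated by line first. Pearson correlations of log2(FPKM + 1) over the genes tested lay between 0.9683 and 0.9784 within a line and between 0.6626 and 0.7484 across lines, and the first principal component, which separated the lines, held 88.5% of the variance. A gene is called here when its log2 fold change lay beyond 1 and limma's moderated test, two-sided and adjusted by Benjamini-Hochberg, gave p under 0.05. By this rule 2482 genes (19.4% of those tested) were higher in Huh7 and 1599 (12.5%) were higher in HepG2. The fold change is that of log2(FPKM + 1) in Huh7 minus HepG2 and understates the difference of genes with low values, and a fold given without the log is the ratio of the mean FPKM. Some genes passed the filter through 1 line alone, 1348 through Huh7 and 605 through HepG2. Such genes had to differ, so their p-values describe the spread and are not separate support for a difference. Among the 9450 genes at 1 FPKM or more in all 6 samples, 12.4% were called higher in Huh7 and 10.8% higher in HepG2. An exact permutation test of 3 against 3 samples cannot give a p-value below 0.1, so single genes rest on the fit across all genes. The median log2 fold change was 0.19 over all genes tested and 0.085 over those 9450.

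The split between the directions rested on the scaling. With median-ratio scaling 2037 genes were higher in Huh7 and 2016 in HepG2, after removal of the trend with GC content 1777 and 1831, and after removal of the trend with exon length 1930 and 1980. Over the genes tested, the median of the log2 fold change, 0.19 as deposited, was 0.023, -0.001 and 0.006 under these scalings, so that a list's median is to be read relative to 0.19. The fold change had a Spearman correlation of -0.31 with GC content across genes, which are not independent replicates. Its median was 0.63 in the fifth of the genes with the lowest GC content and -0.17 in the fifth with the highest, and the part of this trend in each result was not tested. Of the genes tested, 38.3% overlap on the same strand a transcript of the NONCODE catalogue that has a row of its own in the tables, and neither the sharing of reads between such rows nor the use of strand in counting is stated.

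**Figure D1:**
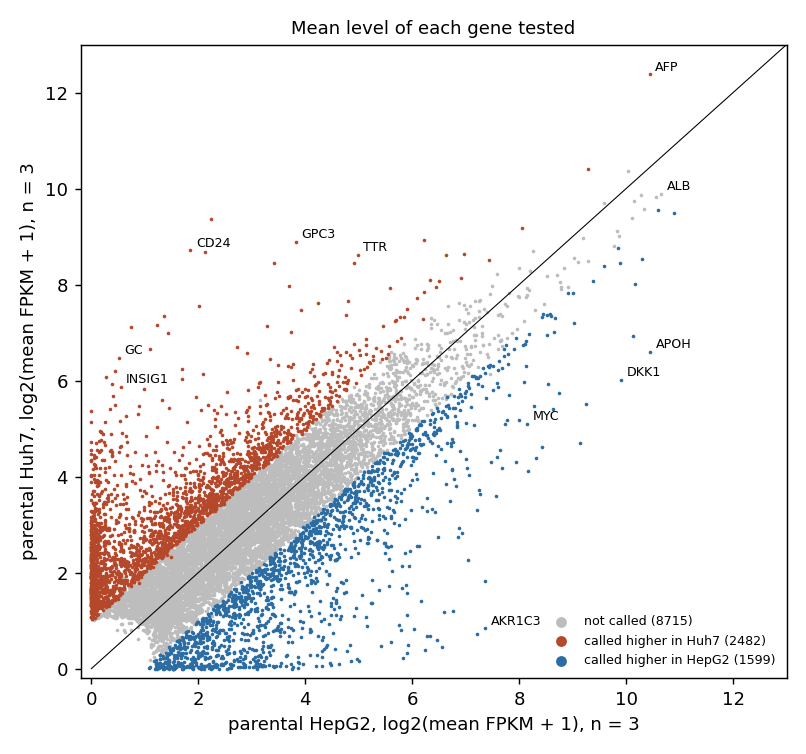
Mean level of each of the 12796 genes tested, as log2(mean FPKM + 1) of 3 samples, in parental HepG2 (x axis) and parental Huh7 (y axis), with the line of equality. Red points mark the 2482 genes called higher in Huh7, blue points the 1599 called higher in HepG2 and grey points the 8715 that were not called, and AFP and ALB stand among the highest genes of both lines.

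Both lines expressed the defining hepatocyte genes. All 8 hepatocyte markers examined (ALB, APOA1, APOB, SERPINA1, TF, TTR, FGB and HNF4A) were at 1 FPKM or more in all 6 samples. TTR and FGB were called higher in Huh7 and TF higher in HepG2. AFP, the fetal counterpart of albumin and a serum marker of liver cancer, measured 4623, 5066 and 6306 FPKM in the 3 Huh7 samples and 1413, 1081 and 1688 FPKM in the 3 HepG2 samples. The gene lies at chr4:73431138-73456174 on GRCh38, and its level was 3.83-fold higher in Huh7 (log2 fold change 1.95 ± 0.25 SE, adjusted p = 0.000244). ALB, the major plasma protein of the adult liver, measured 875, 867 and 1114 FPKM in Huh7 and 2137, 1132 and 1576 FPKM in HepG2. The lowest HepG2 sample of ALB stood just above the highest Huh7 sample, and ALB was not called (log2 fold change -0.72 ± 0.27 SE, adjusted p = 0.0405), although it passed the fold limit once the GC trend was taken off. APOB was at 686, 872 and 999.5 FPKM in Huh7 and 1079, 922 and 1394 FPKM in HepG2, with overlapping samples (adjusted p = 0.159). AFP was thus the highest gene of Huh7, whereas in HepG2 its samples overlapped those of ALB.

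The promoters of AFP and ALB are shown here because these genes had the highest levels among the plasma proteins. The 250 bases before the RefSeq start on GRCh38.p14 are printed, with a match to GTTAATNAT, a part of the binding motif of the hepatocyte factor HNF1, in capitals.
ALB (chr4:73404037-73404286, plus strand): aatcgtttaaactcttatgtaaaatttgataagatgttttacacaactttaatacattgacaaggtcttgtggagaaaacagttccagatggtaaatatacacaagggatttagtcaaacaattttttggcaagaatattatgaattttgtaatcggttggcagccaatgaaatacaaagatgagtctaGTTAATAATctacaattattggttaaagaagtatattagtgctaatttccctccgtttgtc
AFP (chr4:73435971-73436220, plus strand): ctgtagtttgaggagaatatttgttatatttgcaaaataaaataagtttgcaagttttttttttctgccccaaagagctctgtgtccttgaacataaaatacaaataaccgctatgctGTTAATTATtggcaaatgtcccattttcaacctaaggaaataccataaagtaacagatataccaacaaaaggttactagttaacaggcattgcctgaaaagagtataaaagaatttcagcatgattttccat
The AFP window lies inside the span of the gene in the GENCODE annotation, which begins further upstream. The match begins 61 bases before the start of ALB and 132 bases before that of AFP. Searched on both strands, these letters occur in such windows of 0.879% of all 27305 genes. Of the 23 plasma protein genes with a window, 3 hold them (ALB, AFP and SPP1). The letters were shortened after a form longer by 1 base had matched only AFP of the 3, and a match is a description of the letters alone.

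Among secreted plasma proteins, 25 of 32 listed genes were tested, of which 7 were called higher in Huh7 and 13 higher in HepG2, with a median log2 fold change of -1.06. Of the 16 tested genes at 1 FPKM or more in all 6 samples, 4 and 8 were called. Huh7 led in GC, the vitamin D binding protein, with 87.4, 83.9 and 93.5 FPKM against 0.480, 0.376 and 0.454 FPKM in HepG2. This was a difference of 202-fold (log2 fold change 5.96 ± 0.12 SE, adjusted p = 9.52e-08), and no sample of HepG2 reached 1 FPKM. TTR, the thyroxine carrier transthyretin, measured 423, 444 and 308 FPKM in Huh7 and 30.3, 37.6 and 24.1 FPKM in HepG2 (log2 fold change 3.64 ± 0.21 SE, adjusted p = 2.49e-06). The haem carrier HPX was 56.1-fold higher in Huh7. HepG2 led in ITIH3, a chain of the inter-alpha-trypsin inhibitors, with 36.8, 34.1 and 22.5 FPKM against 0.0941, 0.130 and 0.125 FPKM in Huh7 (log2 fold change -4.82 ± 0.19 SE, adjusted p = 4.53e-07). SERPINA3, the acute-phase protein α1-antichymotrypsin, was 64.9-fold higher in HepG2, osteopontin (SPP1) 19.3-fold and FGL1, a fibrinogen-like hepatokine, 17.1-fold. SERPINA1 and ITIH2 were among the highest members in both lines and were not called, with log2 fold changes of -0.71 and -0.71.

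**Figure D2:**
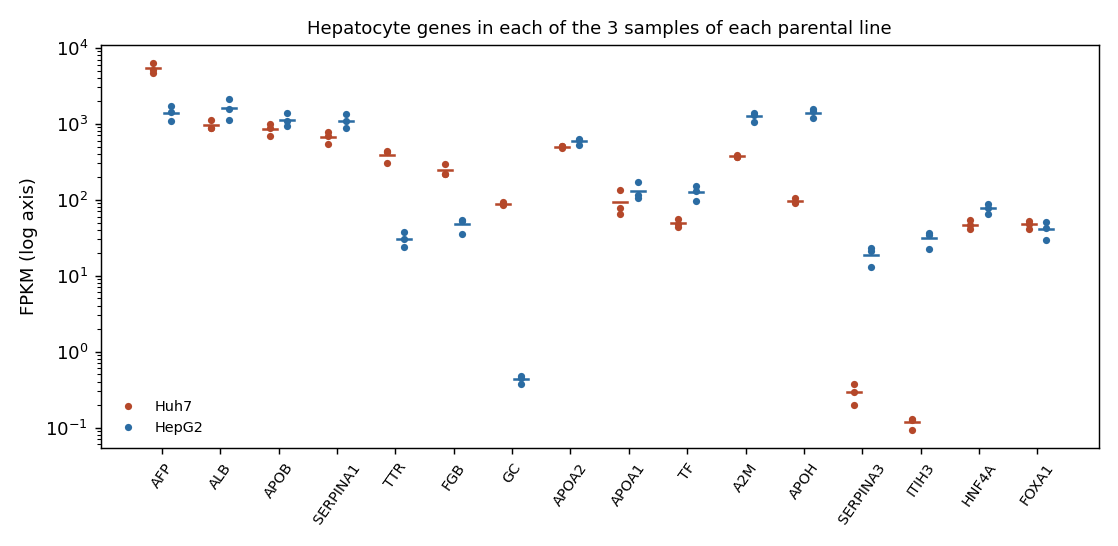
FPKM on a log axis of 16 hepatocyte genes in each sample of parental Huh7 (red, left) and parental HepG2 (blue, right); points are samples and bars are means of 3. AFP, TTR, FGB and GC are higher in every Huh7 sample, A2M, APOH, SERPINA3 and ITIH3 in every HepG2 sample, and the samples of APOB, APOA1 and FOXA1 overlap.

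Transcription factors of the hepatocyte were expressed in both lines, and 26 of 27 were tested. Of these, 9 were called higher in Huh7 and 3 higher in HepG2 (9 and 2 of the 24 at 1 FPKM or more in all 6 samples), with a median log2 fold change of 0.64. HNF4A, a nuclear receptor that maintains hepatocyte identity, measured 54.1, 46.02 and 40.5 FPKM in Huh7 and 64.7, 88.2 and 77.9 FPKM in HepG2. Its samples did not overlap, as in 70% of all genes tested, but the difference was within the fold limit (log2 fold change -0.70 ± 0.17 SE, adjusted p = 0.00631). FOXA1 (0.24) and PROX1 (0.37) were not called either. The nuclear receptors NR2F2 and NR2F1, both COUP-TF factors, were higher in Huh7, with 20.4, 19.3 and 18.8 FPKM of NR2F2 against 2.38, 2.63 and 3.66 FPKM in HepG2 (log2 fold change 2.41 ± 0.15 SE, adjusted p = 4.26e-06). GATA6 was 4.58-fold and ONECUT1 (HNF6) 3.85-fold higher in Huh7. HepG2 had more NR0B2 (SHP), the repressor induced by bile acids, with 222, 269 and 242 FPKM against 21.1, 18.6 and 16.4 FPKM in Huh7 (log2 fold change -3.64 ± 0.15 SE, adjusted p = 4.7e-07). CEBPB, a factor of the acute-phase response, was 10.1-fold higher in HepG2.

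Markers of other cell types were sparse, and in bulk RNA fewer cells of a type and less RNA per cell cannot be told apart. Of 8 endothelial markers only PECAM1 was tested (not called, but past the fold limit with a pseudocount of 0.1, at -1.13, with 1.36 ± 0.0693 FPKM, SD, n = 3, in Huh7 and 3.13 ± 0.580 FPKM in HepG2), and KDR was listed at 0 in HepG2. Of 8 fibroblast and stellate cell markers in the tables, only PDGFRB and ACTA2 passed the filter, and the summed level of all 8 was 3.60 to 4.66 FPKM in Huh7 and 16.8 to 26.4 FPKM in HepG2. In HepG2 most of it was ACTA2, with 21.2, 21.6 and 13.4 FPKM in HepG2 and 0.637, 0.499 and 0.374 FPKM in Huh7. Of 7 leukocyte markers 2 were tested, and the summed level of all 7 was 1.98 to 3.22 FPKM in Huh7 and 6.67 to 8.19 FPKM in HepG2, and HBA1 was listed at 0 throughout. LYZ, the lysozyme gene, made up most of it in HepG2, at 3.84, 5.63 and 5.33 FPKM. Bile duct markers differed less, with SOX9 (-0.75) and KRT19 (0.02) not called, and EPCAM 7.39-fold higher in HepG2 (log2 fold change -2.70 ± 0.12 SE, adjusted p = 6.18e-07).

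The widest differences toward Huh7 included cell surface and detoxification genes. The genes described here are drawn from the 20 protein-coding genes with the largest log2 fold change in each direction among those with a mean of at least 10 FPKM in the higher line and no overlap between the lines. CD24, a glycosylated surface protein used as a marker of progenitor cells, measured 450.2, 407 and 397 FPKM in Huh7 and 3.00, 2.47 and 2.36 FPKM in HepG2 (log2 fold change 6.86 ± 0.13 SE, adjusted p = 9.07e-08). GSTP1 (chr11:67583595-67586656), a glutathione transferase that normal hepatocytes express little, measured 493, 392 and 345 FPKM in Huh7 and 3.23, 3.11 and 3.76 FPKM in HepG2. The ratio of its means was 122-fold (log2 fold change 6.54 ± 0.16 SE, adjusted p = 1.13e-07). GPC3 (chrX:133535745-133985895), the oncofetal proteoglycan glypican-3 used as a marker of hepatocellular carcinoma, was also present in HepG2, at 12.2, 12.7 and 14.8 FPKM, but stood at 521, 501 and 399 FPKM in Huh7. It differed by 35.8-fold (log2 fold change 5.05 ± 0.16 SE, adjusted p = 2.2e-07). UCHL1, a ubiquitin hydrolase otherwise typical of neurons, was 103-fold higher, and HAVCR1, the receptor KIM-1, 106-fold higher. BMP2, a ligand of the TGF-β superfamily, measured 82.8, 74.1 and 61.3 FPKM in Huh7 and under 1 FPKM in each HepG2 sample. The gap junction protein GJA1 (connexin 43) was 159-fold and the collagen chain COL5A2 155-fold higher. HIST1H3A, HIST1H3F, HIST1H1A and HIST1H4I were in this group as well, between 61.4-fold and 202-fold higher, but histone genes are near-identical copies whose transcripts mostly lack a poly(A) tail, so that their values are uncertain. The other genes of this group were GC, described above, TMEM109, FLRT3, INSIG1, ME1, EGFR, NRP1 and BEX1.

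The widest differences toward HepG2 were led by AKR1C3 (chr10:5035354-5107686), an aldo-keto reductase of steroid metabolism. It measured 0.898, 0.812 and 0.669 FPKM in Huh7 and 161, 175 and 156 FPKM in HepG2 (log2 fold change -6.52 ± 0.12 SE, adjusted p = 9.07e-08), and reads of the closely similar AKR1C genes may have been split between copies. BPIFB2, a member of the lipid-binding BPI fold family, was 232-fold and CPLX2, complexin 2 of synaptic vesicle release, 259-fold higher in HepG2. SLC2A3, the high-affinity glucose transporter GLUT3, measured 96.4, 92.7 and 49.02 FPKM in HepG2 and 0.561, 0.781 and 0.442 FPKM in Huh7 (log2 fold change -5.60 ± 0.25 SE, adjusted p = 7.57e-07). Replicate 3 of HepG2 was the lowest of the 3 for SLC2A3, yet far above every Huh7 sample. TXNIP, an inhibitor of thioredoxin that also restrains glucose uptake, measured 181, 179.7 and 131 FPKM in HepG2 and 2.51, 2.88 and 2.27 FPKM in Huh7. ANGPTL8, a regulator of lipoprotein lipase, was 146-fold higher, and ACSL5, an acyl-CoA synthetase, 75.3-fold higher. MAT1A, the S-adenosylmethionine synthetase of the differentiated liver, measured 53.2, 74.7 and 65.6 FPKM in HepG2 and under 1 FPKM in each Huh7 sample (log2 fold change -5.21 ± 0.17 SE, adjusted p = 2.2e-07). PRNP, the prion protein, differed by 83.9-fold, LGALS3BP by 128-fold and the antimicrobial peptide DEFB1 by at least 150.0-fold. SERPINA11, DHRS2, PAQR8, AKR1B10, MFNG, ITIH3, PLA2G2E and HYAL1 also belonged to this group.

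In the plot of called members by list, cholesterol synthesis stood at one end and targets of NRF2 and Wnt at the other. These lists are described by their counts and medians beside those of all genes tested, without a test of the list itself. The counts cover the members that passed the filter, and the second pair of counts given for a list covers those at 1 FPKM or more in all 6 samples, to be read beside 12.4% and 10.8%.

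**Figure D3:**
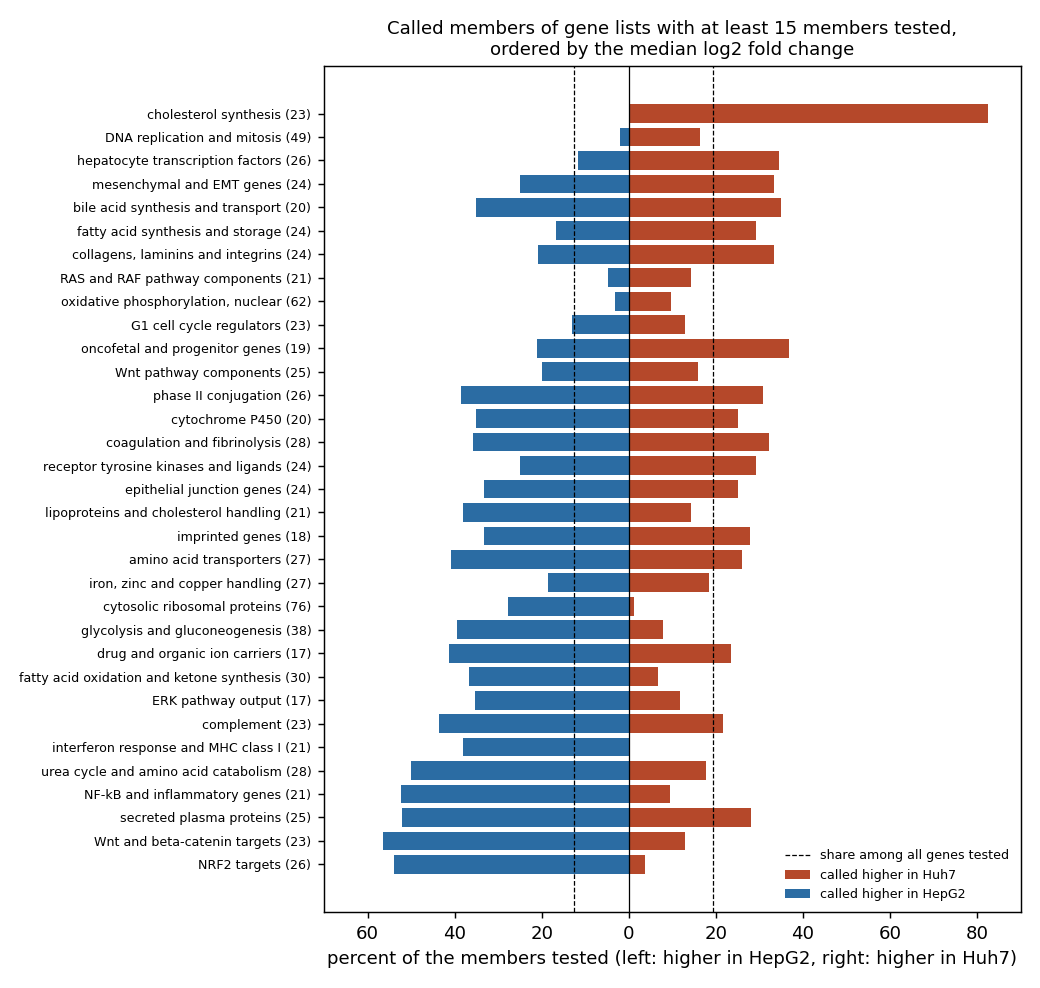
Percent of the tested members of gene lists that were called higher in Huh7 (red, right) or higher in HepG2 (blue, left), for lists with at least 15 members tested, the number in brackets. Dashed lines mark 19.4% and 12.5%, the shares among all genes tested, and cholesterol synthesis, with 19 of 23 members, is far beyond the former.

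Genes of cholesterol synthesis were higher in Huh7 almost throughout. Sterol synthesis runs from acetyl-CoA through mevalonate to cholesterol, and its enzymes are induced together by the factor SREBP-2 when the sterols of the cell run low. Of 23 members, all tested, 19 were called higher in Huh7 and none in HepG2, with a median log2 fold change of 1.98. Leaving out the 2 that passed through Huh7 alone, 17 of the 21 at 1 FPKM or more in all 6 samples were called. HMGCS1, which makes HMG-CoA, measured 96.5, 98.1 and 116 FPKM in Huh7 and 5.41, 5.36 and 6.00 FPKM in HepG2 (log2 fold change 3.98 ± 0.13 SE, adjusted p = 2.23e-07). DHCR7, the last step of the pathway through 7-dehydrocholesterol, measured 106, 95.3 and 82.1 FPKM in Huh7 and 8.13, 6.65 and 4.81 FPKM in HepG2, a 14.4-fold difference. MSMO1, a sterol demethylase, was 10.9-fold and MVD, which decarboxylates mevalonate, 13.9-fold higher. INSIG1, which retains the SREBP complex in the endoplasmic reticulum and is itself an SREBP target, measured 58.3, 65.6 and 49.5 FPKM in Huh7 and 0.584, 0.424 and 0.383 FPKM in HepG2 (log2 fold change 5.32 ± 0.15 SE, adjusted p = 1.52e-07). SREBF2, the gene of SREBP-2 itself, did not differ in this way, with 29.3, 23.03 and 22.4 FPKM in Huh7 and 27.9, 29.5 and 20.6 FPKM in HepG2 (log2 fold change -0.05 ± 0.18 SE, adjusted p = 0.812). TM7SF2 and PMVK were not called either. Under the alternatives run, the count ranged from 17, with the stricter filter, to 19, and none was called higher in HepG2.

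The promoters of INSIG1, IDI1 and SREBF2 are printed because they are members of this list that hold CACNCCAC, the core of the sterol regulatory element, in the 250 bases before the start. INSIG1 and IDI1 (isopentenyl diphosphate isomerase) were called, and SREBF2 was not. Matches on either strand are in capitals.
INSIG1 (chr7:155297628-155297877, plus strand): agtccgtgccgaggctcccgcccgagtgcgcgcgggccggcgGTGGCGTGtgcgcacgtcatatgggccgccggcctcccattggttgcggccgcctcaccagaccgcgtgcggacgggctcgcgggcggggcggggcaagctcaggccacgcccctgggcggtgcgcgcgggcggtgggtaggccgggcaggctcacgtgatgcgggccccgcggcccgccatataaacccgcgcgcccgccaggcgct
IDI1 (chr10:1048887-1049136, minus strand): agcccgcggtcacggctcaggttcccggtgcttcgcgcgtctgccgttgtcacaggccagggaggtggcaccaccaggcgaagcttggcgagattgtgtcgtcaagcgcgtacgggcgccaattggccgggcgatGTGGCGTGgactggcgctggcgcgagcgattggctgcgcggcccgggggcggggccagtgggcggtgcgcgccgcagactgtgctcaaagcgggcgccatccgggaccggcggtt
SREBF2 (chr22:41832855-41833104, plus strand): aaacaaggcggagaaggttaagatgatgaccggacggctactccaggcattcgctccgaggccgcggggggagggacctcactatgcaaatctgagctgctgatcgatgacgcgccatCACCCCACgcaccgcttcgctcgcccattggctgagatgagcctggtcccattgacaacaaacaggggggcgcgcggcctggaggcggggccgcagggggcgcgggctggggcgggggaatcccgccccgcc
The letters begin 208, 115 and 132 bases before the start. They were found in 4 of 18 listed genes with a window, SC5D being the fourth, and in 5.89% of all 27305 genes. The letters were shortened after a longer form, TCACNCCAC, had matched SREBF2 alone of the 18, and 1.09% of all genes.

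Other lipid genes divided between the lines. Of 24 genes of fatty acid synthesis and storage, 7 were called higher in Huh7 and 4 higher in HepG2, and all 24 were at 1 FPKM or more in all 6 samples. The desaturase FADS2 measured 75.9, 71.1 and 59.9 FPKM in Huh7 and 2.46, 3.93 and 3.33 FPKM in HepG2 (log2 fold change 4.05 ± 0.17 SE, adjusted p = 5.2e-07), and FADS1 (3.60-fold), fatty acid synthase FASN (2.96-fold) and SCD (2.36-fold) were higher in Huh7 as well. PLIN2, a coat protein of lipid droplets, went the other way, with 543, 768 and 516 FPKM in HepG2 and 47.98, 47.7 and 39.2 FPKM in Huh7 (log2 fold change -3.71 ± 0.19 SE, adjusted p = 1.39e-06). MLXIPL, the carbohydrate-response factor ChREBP, was 14.8-fold and GPAM, the first acyltransferase of glycerolipid synthesis, 6.28-fold higher in HepG2. Of 30 genes of fatty acid oxidation and ketone synthesis, 2 were called higher in Huh7 and 11 in HepG2 (2 and 9 of the 28 in all 6 samples). ACSL5, PPARGC1A (14.2-fold), CPT1A (5.58-fold) and HADHA (3.10-fold) were among the latter. Among 21 genes of lipoproteins and cholesterol handling, 3 and 8 were called (2 and 5 of the 17 in all 6 samples). APOH measured 1192, 1460 and 1553 FPKM in HepG2 and 90.5, 105 and 92.97 FPKM in Huh7 (log2 fold change -3.85 ± 0.17 SE, adjusted p = 6.43e-07). APOM was 9.53-fold, APOA5 27.00-fold and APOC3 4.16-fold higher in HepG2, while the hepatic lipase LIPC (14.5-fold) and MTTP (3.32-fold), which loads lipid onto apolipoprotein B, were higher in Huh7. APOA1 (-0.53) and APOA2 (-0.22), the main proteins of HDL, were not called.

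Targets of Wnt and β-catenin were mostly higher in HepG2. Of 30 listed genes 23 were tested, 13 were called higher in HepG2 and 3 in Huh7, with a median log2 fold change of -1.22. Of the 16 at 1 FPKM or more in all 6 samples, 9 were called higher in HepG2 and none in Huh7. AXIN2, a negative regulator of the pathway induced in most tissues in which it is active, measured 9.01, 10.3 and 9.98 FPKM in HepG2 and 1.00, 0.500 and 0.734 FPKM in Huh7 (log2 fold change -2.63 ± 0.15 SE, adjusted p = 2.33e-06). NKD1, another feedback inhibitor, measured 7.04, 8.25 and 8.40 FPKM in HepG2 and 0.262, 0.232 and 0.178 FPKM in Huh7 (log2 fold change -2.86 ± 0.12 SE, adjusted p = 6.43e-07). LGR5, a receptor of R-spondins, measured 37.8, 34.5 and 54.6 FPKM in HepG2 and 10.8, 11.8 and 12.8 FPKM in Huh7 (log2 fold change -1.73 ± 0.18 SE, adjusted p = 7.48e-05). The Huh7 and HepG2 samples of these 3 genes did not overlap, as held for 70% of all genes tested (28.4% with HepG2 higher). NKD1 passed the filter through HepG2 alone, so its call and its lack of overlap add no support. DKK1, a secreted Wnt antagonist, was the highest member, at 640.2, 875 and 1354 FPKM in HepG2 and 66.8, 62.4 and 61.5 FPKM in Huh7 (log2 fold change -3.82 ± 0.26 SE, adjusted p = 5.78e-06). Its HepG2 samples varied by more than a factor of 2. MYC measured 262, 286 and 305 FPKM in HepG2 and 37.2, 33.3 and 29.8 FPKM in Huh7 (log2 fold change -3.05 ± 0.14 SE, adjusted p = 8.8e-07). ODAM (17.7-fold), the glutamate transporter SLC1A2 (308-fold) and the Wnt deacylase NOTUM (63.9-fold) were also higher in HepG2. GLUL, glutamine synthetase, a β-catenin target of the pericentral liver, was not among them, with 77.5, 72.05 and 61.4 FPKM in Huh7 and 42.8, 64.3 and 40.4 FPKM in HepG2 (log2 fold change 0.53 ± 0.20 SE, adjusted p = 0.0426). CCND1 (0.69) and ZNRF3 (0.44) were not called, and FZD7, SOX4 and TSPAN5 were called higher in Huh7. The letters CTTTGAT of the TCF and LEF site occurred before the start of 1 of 19 listed genes with a window (SP5), and of 2.75% of all genes. A longer form, CTTTGATC, searched first, matched none of the 19.

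CTNNB1 itself, the gene of β-catenin, was at 41.98, 41.1 and 36.9 FPKM in Huh7 and 41.9, 40.95 and 40.1 FPKM in HepG2, which overlapped (log2 fold change -0.04 ± 0.12 SE, adjusted p = 0.806). Of 25 components of the pathway, 4 were called higher in Huh7 and 5 higher in HepG2 (2 and 4 of the 22 in all 6 samples). AXIN1, a scaffold of the complex that degrades β-catenin, was 5.24-fold higher in HepG2, and its partners APC (3.65-fold) and GSK3B (2.82-fold) were higher in Huh7. The call of APC was lost once the GC trend was taken off. WLS, which is needed for Wnt secretion, was 69.1-fold higher in Huh7.

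**Figure D4:**
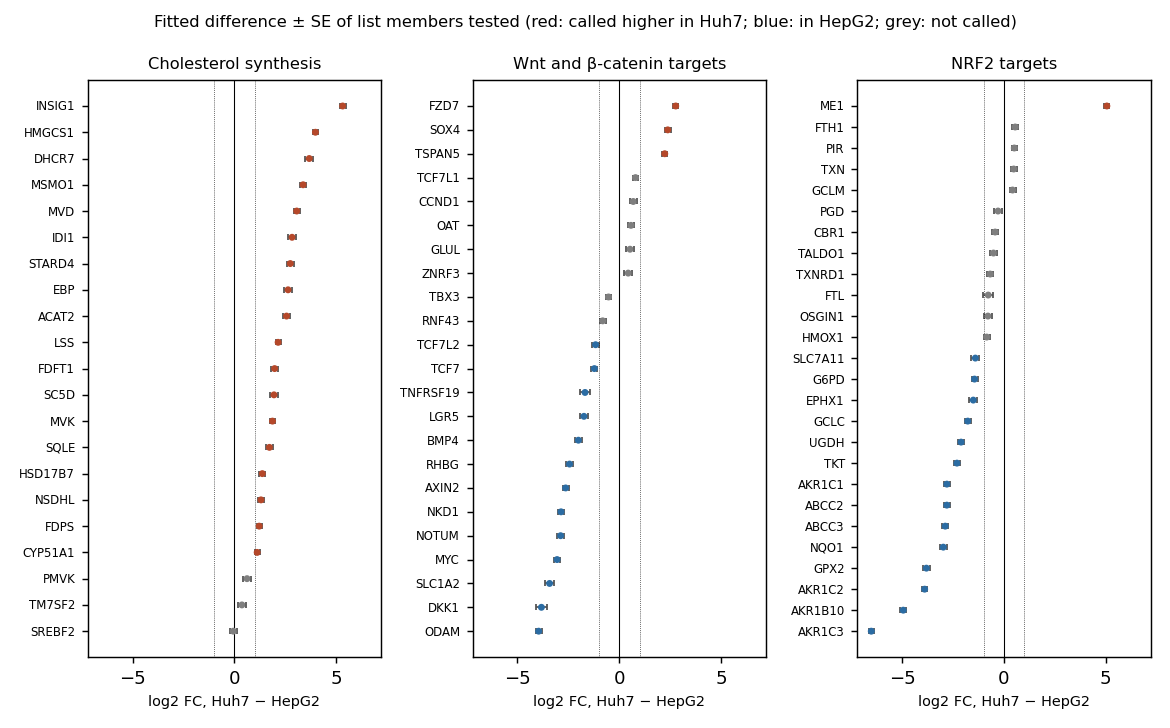
Fitted log2 fold change, Huh7 minus HepG2, with its SE (bars) for tested members of 3 lists; dotted lines mark the fold limit of 1. Cholesterol synthesis lies to the right except for SREBF2, and most members of the Wnt and NRF2 lists lie to the left, with ME1, FZD7, SOX4 and TSPAN5 beyond the limit on the right.

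Cell cycle genes were also compared. Of 23 regulators of G1, 3 were called in each direction (2 and 2 of the 18 in all 6 samples). CDKN2A, which encodes the inhibitors p16 and p14ARF, was 10.2-fold and its neighbour CDKN2B 7.67-fold higher in Huh7. CDK6 was 3.21-fold higher in HepG2, while E2F1 (0.13) was not called. All 49 genes of DNA replication and mitosis were expressed, of which 8 were called higher in Huh7 and 1 in HepG2, with a median of 0.65. FEN1 (6.34-fold) and MCM6 (5.71-fold) led in Huh7, and PLK1 (3.94-fold) was the member higher in HepG2. PCNA, TPX2 and MCM3 were within the fold limit. With limma-voom on the reads, 16 members of this list were called higher in Huh7, and with median-ratio scaling 5.

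In the RAS pathway, NRAS, which carries an activating mutation in HepG2, was at 53.2, 56.9 and 57.2 FPKM in Huh7 and 42.2, 33.9 and 44.9 FPKM in HepG2 (log2 fold change 0.47 ± 0.14 SE, adjusted p = 0.0199). Of 21 RAS and RAF components, 3 were called higher in Huh7 and 1 in HepG2 (the same counts among the 20 in all 6 samples). The calls of BRAF (3.00-fold) and GAB1 (3.32-fold) toward Huh7 were lost once the GC trend was taken off. RPS6KA1 was 5.37-fold higher in HepG2. Transcripts that ERK induces were called higher in HepG2 in 6 of 17 tested cases and higher in Huh7 in 2 (5 and 1 of the 12 in all 6 samples). FOSL1, a subunit of AP-1, measured 16.6, 24.2 and 21.6 FPKM in HepG2 and 0.975, 0.755 and 1.02 FPKM in Huh7 (log2 fold change -3.50 ± 0.17 SE, adjusted p = 9.26e-07). The phosphatase DUSP6 (2.53-fold), SPRY4 (2.99-fold) and ETV4 (3.23-fold) were higher in HepG2, and SPRY2 (3.85-fold) and ETV1 (6.33-fold) in Huh7.

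Growth factor receptors and ligands were called in both directions, with 7 of 24 tested genes higher in Huh7 and 6 higher in HepG2 (4 and 4 of the 16 in all 6 samples). EGFR (chr7:55019021-55211628) measured 58.4, 55.2 and 53.6 FPKM in Huh7 and 0.949, 1.08 and 0.883 FPKM in HepG2 (log2 fold change 4.85 ± 0.12 SE, adjusted p = 1.13e-07), a 57.3-fold difference. Its ligand TGFA went the other way, with 4.07, 4.05 and 4.04 FPKM in HepG2 and 0.123, 0.0359 and 0.0499 FPKM in Huh7. FGF19, the ligand that represses bile acid synthesis, measured 17.3, 17.1 and 11.5 FPKM in Huh7 and under 1 FPKM in each HepG2 sample (log2 fold change 3.46 ± 0.20 SE, adjusted p = 2.49e-06). Its receptor FGFR4 was at 126, 94.8 and 84.9 FPKM in Huh7 and 29.98, 39.5 and 47.3 FPKM in HepG2 (log2 fold change 1.37 ± 0.21 SE, adjusted p = 0.000614). KLB, the co-receptor β-klotho, was 7.71-fold higher in Huh7. FGF19 passed the filter through Huh7 alone, so its call adds no support to those of FGFR4 and KLB. IGF1R (2.93-fold), PDGFA (3.94-fold) and VEGFA (4.24-fold) were higher in HepG2. MET (-0.41) and ERBB3 (-0.56) were not called.

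Targets of NRF2, the factor that induces detoxifying and antioxidant enzymes, were higher in HepG2 in 14 of 26 tested cases and higher in Huh7 in 1, with a median log2 fold change of -1.43. Among the 23 at 1 FPKM or more in all 6 samples, 12 and none were called. NQO1, a quinone reductase, measured 366, 521 and 395 FPKM in HepG2 and 58.1, 52.9 and 47.2 FPKM in Huh7 (log2 fold change -2.98 ± 0.18 SE, adjusted p = 2.8e-06). GPX2, a glutathione peroxidase, measured 327, 373 and 329 FPKM in HepG2 and 26.8, 24.3 and 19.7 FPKM in Huh7 (log2 fold change -3.81 ± 0.15 SE, adjusted p = 4.79e-07). AKR1B10, an aldo-keto reductase often raised in liver cancer, measured 35.6, 45.4 and 44.9 FPKM in HepG2 and 0.383, 0.340 and 0.426 FPKM in Huh7 (log2 fold change -4.95 ± 0.14 SE, adjusted p = 1.78e-07). AKR1C3 and AKR1C2 (16.5-fold) are also members, with the uncertainty of similar copies given above. ME1, the cytosolic malic enzyme, was the exception, with 42.2, 44.2 and 45.4 FPKM in Huh7 and 0.294, 0.386 and 0.377 FPKM in HepG2 (log2 fold change 5.05 ± 0.12 SE, adjusted p = 1.13e-07). TXN (0.48), GCLM (0.42) and FTL (-0.78) were not called. The promoter of GPX2 is printed as the member with the largest difference toward HepG2 among those that hold TGACNNNGC, the core of the antioxidant response element, in the 250 bases before the start.
GPX2 (chr14:64942746-64942995, minus strand): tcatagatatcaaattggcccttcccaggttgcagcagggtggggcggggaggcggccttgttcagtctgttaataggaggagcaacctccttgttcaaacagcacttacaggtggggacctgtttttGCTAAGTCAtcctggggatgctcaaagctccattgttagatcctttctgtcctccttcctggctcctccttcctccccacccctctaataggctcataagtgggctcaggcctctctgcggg
The match, in capitals and on the opposite strand of this reading, begins 122 bases before the start. Of the 21 listed genes with a window, 7 hold it (CBR1, EPHX1, GCLM, GPX2, ME1, PGD and TXNRD1), as do 13.2% of all genes. The letters were shortened after a search with a form longer by 1 base, which 5 of the 21 and 3.22% of all genes hold.

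Drug metabolism differed gene by gene rather than in 1 direction. Of 20 cytochrome P450 genes tested, 5 were called higher in Huh7 and 7 higher in HepG2 (1 and 2 of the 10 in all 6 samples), and 21 others of the list stayed below the filter. CYP27A1, the sterol 27-hydroxylase, measured 111, 159.6 and 114 FPKM in HepG2 and 21.02, 20.6 and 16.9 FPKM in Huh7 (log2 fold change -2.64 ± 0.18 SE, adjusted p = 5.67e-06). CYP2S1 was 40.7-fold, CYP24A1 127-fold and CYP2B6 23.3-fold higher in HepG2, and CYP1A1 6.25-fold higher in Huh7. CYP3A5 was low in both, at 2.66, 3.02 and 3.55 FPKM in Huh7 and 1.28, 0.903 and 1.04 FPKM in HepG2, and was not called (log2 fold change 0.97 ± 0.14 SE, adjusted p = 0.000385), though it passed the fold limit with a pseudocount of 0.1 (1.44) and without Huh7 replicate 1 (1.05) or HepG2 replicate 1 (1.04). CYP3A7, the fetal form, stayed under 1 FPKM in all 6 samples. Conjugating enzymes were called in 8 cases toward Huh7 and 10 toward HepG2 of 26 tested (4 and 6 of the 15 in all 6 samples). Next to GSTP1, SULT1C4 (20.2-fold) was higher in Huh7, while UGT2B10 (66.9-fold) and UGT2A3 (21.2-fold) were higher in HepG2, with the caution that UGT2B and SULT1A copies are alike.

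Transporters of drugs and bile were called in both directions as well, 4 of 17 toward Huh7 and 7 toward HepG2 (4 and 6 of the 14 in all 6 samples). The export pump ABCC2 (MRP2) measured 262, 218 and 286 FPKM in HepG2 and 33.98, 36.2 and 35.9 FPKM in Huh7 (log2 fold change -2.81 ± 0.15 SE, adjusted p = 1.47e-06). ABCC1 (MRP1) was 15.5-fold, ABCC3 9.96-fold, ABCG2 3.43-fold and ABCB1 (P-glycoprotein) 2.87-fold higher in HepG2. Among the 20 genes of bile acid synthesis and transport, 7 were called in each direction (5 and 6 of the 15 in all 6 samples). HSD3B7 (7.49-fold), an enzyme of bile acid synthesis, was higher in HepG2, and the bile acid receptor NR1H4 (FXR) was 2.46-fold higher in Huh7, a call lost once the GC trend was taken off. SLC22A9 measured 50.5, 57.3 and 51.4 FPKM in Huh7 and 5.29, 4.79 and 4.44 FPKM in HepG2. The nucleoside transporter SLC29A2 was 6.37-fold and the cholesterol exporter ABCA1 3.33-fold higher in Huh7. SLCO1B3, a bile acid uptake carrier, measured 3.12, 3.13 and 5.28 FPKM in Huh7 and was at or below 0.144 FPKM in HepG2.

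Enzymes of sugar and amino acid metabolism were called more often toward HepG2. Of 38 genes of glycolysis and gluconeogenesis, 15 were higher in HepG2 and 3 in Huh7 (9 and 2 of the 28 in all 6 samples). SLC2A1, the glucose transporter GLUT1, measured 181, 350.4 and 325 FPKM in HepG2 and 19.2, 15.02 and 15.04 FPKM in Huh7 (log2 fold change -3.99 ± 0.25 SE, adjusted p = 4.05e-06). The mitochondrial PCK2 measured 168, 228 and 167 FPKM in HepG2 and 12.9, 11.1 and 9.37 FPKM in Huh7 (log2 fold change -3.96 ± 0.18 SE, adjusted p = 6.9e-07). G6PC, which releases free glucose from the hepatocyte, was at 16.8, 17.8 and 6.40 FPKM in HepG2 and under 1 FPKM in Huh7. KHK (ketohexokinase) was 19.4-fold higher in HepG2. Huh7 had more of the muscle-type phosphofructokinase PFKM (17.2-fold) and of pyruvate carboxylase PC (4.44-fold), and GAPDH, PGAM1 and TPI1 were not called. In the urea cycle and amino acid catabolism, 14 of 28 genes were higher in HepG2 and 5 higher in Huh7, with a median of -1.05 (11 and 2 of the 20 in all 6 samples). Next to MAT1A, HPD (90.8-fold), which degrades tyrosine, GOT1 (12.4-fold) and GPT2 (8.73-fold) were higher in HepG2. ARG1, the arginase that completes the urea cycle, measured 7.80, 11.8 and 11.02 FPKM in Huh7 and 1.78, 0.704 and 1.36 FPKM in HepG2 (log2 fold change 2.31 ± 0.22 SE, adjusted p = 4.11e-05). AGXT2 (207-fold) and UPB1 (61.2-fold) were higher in Huh7. Of 14 alcohol and aldehyde dehydrogenases, 1 and 4 were called, with ALDH1A1 3.19-fold higher in Huh7, and ADH4 6.98-fold and ADH6 4.77-fold higher in HepG2.

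Complement and coagulation genes were called in both directions. Of 23 complement genes 5 were higher in Huh7 and 10 in HepG2, and of 28 coagulation genes 9 and 10. In all 6 samples 13 and 22 of them were at 1 FPKM or more, of which 2 and 4 were higher in Huh7, and 5 and 10 in HepG2. SERPING1, the C1 inhibitor, measured 43.8, 38.7 and 32.8 FPKM in Huh7 and 1.27, 0.587 and 0.653 FPKM in HepG2 (log2 fold change 4.43 ± 0.18 SE, adjusted p = 5.11e-07). MASP1, a protease of the lectin pathway, was 60.6-fold higher in Huh7. C4A and C4B, close copies whose reads may be split, were 164-fold and 295-fold higher in HepG2, and C2 was 22.9-fold higher. A2M was 3.37-fold and prothrombin (F2) 3.17-fold higher in HepG2. FGB measured 219.9, 216 and 295 FPKM in Huh7 and 54.5, 35.7 and 51.7 FPKM in HepG2 (log2 fold change 2.35 ± 0.21 SE, adjusted p = 2.42e-05), whereas FGG, another chain of fibrinogen, was not called (-0.88), but was higher in HepG2 with median-ratio scaling (-1.08) and, just past the limit, without HepG2 replicate 2.

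Genes of interferon response and antigen presentation were called toward HepG2 alone at the settings used here, in 8 of 21 tested cases (5 of the 12 in all 6 samples). With a pseudocount of 0.1 in place of 1, 1 member was called higher in Huh7. IFITM3 measured 159, 176 and 123 FPKM in HepG2 and 11.6, 13.1 and 9.55 FPKM in Huh7 (log2 fold change -3.62 ± 0.18 SE, adjusted p = 1.11e-06). HLA-E was 10.5-fold higher in HepG2. Of 21 NF-κB and inflammatory genes, 11 were higher in HepG2 and 2 higher in Huh7 (7 and none of the 14 in all 6 samples). The chemokines CCL16 (at least 134-fold), CXCL16 (7.67-fold) and CCL15 (21.5-fold) were higher in HepG2, and CXCL10 (at least 13.8-fold) and IL18 (21.9-fold) in Huh7. CXCL8 and NFKB1 overlapped between the lines.

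Among oncofetal and progenitor genes, 7 of 19 were higher in Huh7 and 4 higher in HepG2 (5 and 2 of the 15 in all 6 samples). Next to CD24 and GPC3, PROM1 (CD133) measured 15.2, 15.3 and 16.03 FPKM in Huh7 and 0.154, 0.0438 and 0.111 FPKM in HepG2 (log2 fold change 3.90 ± 0.12 SE, adjusted p = 2.2e-07). LIN28B, the fetal repressor of let-7 microRNAs, was 6.64-fold higher in Huh7. DLK1, an imprinted fetal liver protein, measured 16.8, 15.2 and 16.6 FPKM in HepG2 and under 1 FPKM in Huh7 (log2 fold change -3.33 ± 0.12 SE, adjusted p = 3.65e-07). TDGF1 (Cripto) was 175-fold higher in HepG2. IGF2, the imprinted fetal growth factor, measured 49.2, 30.9 and 23.9 FPKM in HepG2 and 7.16, 6.34 and 5.89 FPKM in Huh7 (log2 fold change -2.20 ± 0.24 SE, adjusted p = 8.88e-05). Of 18 imprinted genes tested, 5 were higher in Huh7 and 6 higher in HepG2 (3 and 3 of the 12 in all 6 samples), with PLAGL1 (106-fold) and ZDBF2 (40.3-fold) higher in Huh7 and PEG3 (148-fold) and PHLDA2 (3.56-fold) higher in HepG2.

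The HOX genes, which specify position along the body axis, were split by cluster. Among 36 measured members 11 passed the filter, and 10 of these passed through 1 line alone, so their calls follow from the filter and are given as levels. HOXC10 measured 24.7, 22.5 and 20.2 FPKM in Huh7 and 0.0980, 0.0698 and 0.0546 FPKM in HepG2. HOXC4, HOXC6, HOXC8, HOXC9 and HOXC13 were at 1 FPKM or more in every Huh7 sample and below it in every HepG2 sample. HOXD1 measured 15.4, 16.9 and 21.1 FPKM in HepG2 and 0.649, 0.451 and 0.721 FPKM in Huh7. HOXD4 was at 3.95, 5.84 and 4.60 FPKM in HepG2 and listed at 0 in Huh7, as was HOXD3. HOXA3, the only member at 1 FPKM or more in all 6 samples, was not called, though it passed the fold limit with a pseudocount of 0.1 (1.07). No gene of the HOXB cluster passed the filter in either line.

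Genes of cell adhesion did not follow a single epithelial or mesenchymal direction. Of 24 epithelial junction genes, 6 were higher in Huh7 and 8 higher in HepG2, and of 24 mesenchymal genes 8 and 6. In all 6 samples 17 and 16 of them were at 1 FPKM or more, of which 3 and 4 were higher in Huh7, and 6 and 3 in HepG2. CDH1, E-cadherin, measured 8.17, 8.04 and 7.15 FPKM in Huh7 and 0.826, 0.540 and 0.813 FPKM in HepG2 (log2 fold change 2.35 ± 0.14 SE, adjusted p = 2.39e-06), while CDH2, N-cadherin, was within the fold limit (-0.40). Desmoplakin (DSP) was 6.41-fold and CLDN4 22.7-fold higher in HepG2. FN1, fibronectin, measured 1371, 1127 and 944 FPKM in HepG2 and 289, 257 and 229 FPKM in Huh7 (log2 fold change -2.14 ± 0.20 SE, adjusted p = 3.3e-05). VIM was not tested, at 0.605, 0.552 and 0.456 FPKM in Huh7 and listed at 0 in HepG2. Whether the counting sets so low a value was not tested. Caveolin CAV1 (at least 72.7-fold) and the integrin ITGA5 (42.6-fold) were higher in Huh7, and ITGA2 (7.56-fold) in HepG2. Of 24 genes of collagens, laminins and integrins, 8 were called higher in Huh7, among them COL2A1 (178-fold) and COL12A1 (115-fold), and 5 higher in HepG2 (2 and 2 of the 15 in all 6 samples). KRT18 and KRT8, the keratins of hepatocytes, were not called, and KRT23 was 13.8-fold higher in HepG2.

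Chromosomes differed in the balance of the lines. Over genes at 1 FPKM or more in all 6 samples, the median log2 fold change was lowest on chromosome 16 (-0.30, 416 genes), 10 (-0.28, 401 genes) and 20 (-0.28, 282 genes), that is toward HepG2. It was highest on chromosome 4 (0.44, 345 genes), 7 (0.40, 450 genes) and 15 (0.38, 308 genes), against 0.085 over all such genes. Within chromosome 16 the genes from 10 to 20 Mb had a median of -0.99, with 20 of 41 called higher in HepG2 and none in Huh7. From 30 to 40 Mb on chromosome 12 the median was 1.22, with 11 of 19 genes called higher in Huh7 and 1 higher in HepG2. These windows are the extremes of those with at least 15 genes and were chosen after their values were seen. Both lines are aneuploid by general knowledge, but gene copy number was not measured here and its part was not tested. The trend with GC content was not taken off these medians, and its part was not tested either. Once it was taken off, the medians over all genes tested changed sign on chromosomes 1, 6, 8 and 14.

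**Figure D5:**
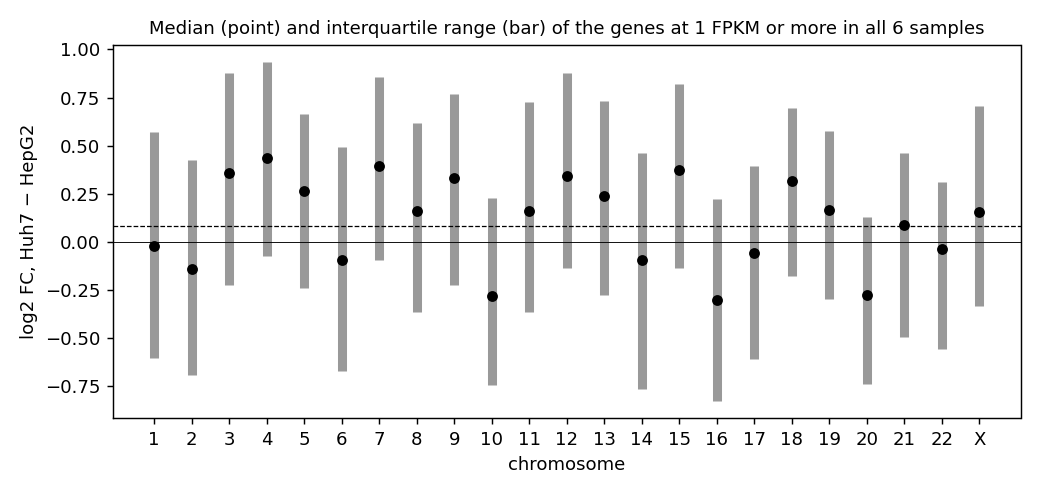
Median (point) and interquartile range (bar) of the log2 fold change, Huh7 minus HepG2, of the genes at 1 FPKM or more in all 6 samples, by chromosome; the dashed line is the median of all such genes, 0.085. Chromosomes 10, 16 and 20 have the lowest medians and chromosomes 4, 7 and 15 the highest, and the bars of all chromosomes overlap.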

How the data were processed

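Total RNA of parental Huh7 and HepG2 cells (3 samples each) was sequenced by the study. The authors deposited 1 table per sample with a normalised value per gene; its unit is not stated, and the values were taken as FPKM, which cannot be told apart from RPKM. The submitters' processing notes name GRCh38 and bcl2fastq; aligner and counter are not given in the sources used here. In single-exon genes the deposited FPKM came in steps of 1 read, from which depth was calculated. Rows of the NONCODE catalogue and the resistant samples were left out, and some genes and 1 gene list are not reported here.

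Genes at 1 FPKM or more in at least 3 of 6 samples were tested on log2(FPKM + 1) by limma 3.58.1 (R 4.3.3), eBayes with a trend and Benjamini-Hochberg adjustment. Calls required a log2 fold change beyond 1 together with adjusted p under 0.05. Gene positions come from GENCODE 29 (GRCh38), promoters from RefSeq. A fold is given as at least the value where the lower line had 3 reads or fewer in every library; this floor and the depth cover counting error only. Tested on simulated data with 12796 genes, the comparison called 87 of 100 genes changed by log2 1.5, 98 of 100 changed by log2 3 and 2 unchanged genes. The changed genes were drawn from those with higher means only, so the rates do not cover genes with low values. Noise was normal and independent, and far fewer genes changed than were called in the real data.

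The genes named are the 20 widest protein-coding differences in each direction (mean of at least 10 FPKM in the higher line, no overlap), the 10 highest genes of each line, and up to 5 called members per direction and 3 further members with high values of each of 47 lists (1396 genes), and some marker genes named singly. The members and lists were chosen with earlier results of these data known. Alternatives covered the pseudocount, the filter, the scaling, the trends with GC content and length, limma-voom on the reads, the replicate number as a block, each sample left out and the fold limit.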

Additional observations from a re-analysis of the deposited data

How the results depend on the processing

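Both directions kept more than 1000 called genes under every alternative with the fold limit of 1. No call of a named gene turned to the other line. Changes of sign in genes that were not called are not covered by this statement. With genes at 1 FPKM or more in all 6 samples alone, 1176 were higher in Huh7 and 1024 higher in HepG2, since fewer genes were tested. Without a fold limit 4990 and 3348 were called, and with a limit of log2 2, 629 and 444. A pseudocount of 0.1 gave 3181 and 1972, one of 0.01 3226 and 2003, no filter 2569 and 1625, upper-quartile scaling 2497 and 1598, no trend 2482 and 1598, and limma-voom on the reads 3368 and 1904. Leaving out 1 sample gave 2353 to 2685 and 1517 to 1702, and 2075 and 1367 genes were called in each of these fits. With the replicate number as a block 2495 and 1602 were called; deviations of same-numbered samples had correlations of -0.187, -0.047 and 0.183, so the numbers were not taken as pairs, and no call of a named gene changed. Of 449 named genes, 21 lost and 14 gained a call once the GC trend was taken off, 8 and 9 with the length trend taken off, and 8 and 12 with median-ratio scaling.

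Medians of several lists changed sign. Among them were large ones as given (fibroblast markers -2.04 with 2 genes tested, cancer-testis genes 1.64 with 7, complement -0.76). Without a filter, or with genes at 1 FPKM or more in all 6 samples alone, the median covers another set of members. For cancer-testis genes in all 6 samples this set is 1 gene. Under the other settings the cause was not tested. Without a filter the median was 0.008 for receptor tyrosine kinases and ligands, 0.012 for cytochrome P450, 0.049 for alcohol and aldehyde dehydrogenases, 0.021 for complement, -0.006 for cancer-testis genes, 0.015 for bile duct markers and 0.087 for fibroblast markers. With genes at 1 FPKM or more in all 6 samples it was -0.213 for cancer-testis genes and -0.1 for G1 regulators. Median-ratio scaling gave -0.125 for oncofetal genes, -0.196 for Wnt pathway components, -0.065 for G1 regulators, -0.124 for chromosome 1, -0.153 for chromosome 6 and -0.156 for chromosome 14. With the GC trend taken off it was -0.147 for oncofetal genes, -0.135 for chromosome 1, -0.216 for chromosome 6, -0.026 for chromosome 8 and -0.232 for chromosome 14. With the length trend taken off it was -0.182 for oncofetal genes, -0.15 for Wnt pathway components, -0.046 for RAS and RAF components, -0.04 for G1 regulators, -0.115 for chromosome 1, -0.158 for chromosome 6 and -0.205 for chromosome 14. With 1 sample left out the median of G1 regulators ranged from -0.009, without Huh7 replicate 2, to 0.197.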

Other observations

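Further gene groups were compared by the same counts. Of 27 amino acid transporters, 7 were called higher in Huh7 and 11 higher in HepG2 (1 and 9 of the 18 at 1 FPKM or more in all 6 samples). SLC7A1, which takes up arginine, measured 35.4, 48.6 and 45.5 FPKM in HepG2 and 5.19, 5.08 and 5.12 FPKM in Huh7 (log2 fold change -2.84 ± 0.15 SE, adjusted p = 1.48e-06), and the glutamine transporter SLC1A5 was 5.25-fold higher in HepG2. SLC6A14 (16.9-fold) and SLC1A3 (176-fold) were higher in Huh7. Of 27 genes of iron, zinc and copper handling, 5 were called in each direction (1 and 2 of the 20 in all 6 samples). The hormone hepcidin (HAMP) measured 13.2, 9.49 and 3.87 FPKM in HepG2 and 1.20, 1.20 and 0.555 FPKM in Huh7 (log2 fold change -2.19 ± 0.36 SE, adjusted p = 0.000898), and transferrin receptor 2 (TFR2) was 3.66-fold higher in HepG2, while TFRC overlapped. TMPRSS6, which restrains hepcidin, measured 2.68, 2.44 and 2.12 FPKM in Huh7 and under 1 FPKM in HepG2.

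Metallothioneins are small metal-binding proteins encoded by close copies on chromosome 16 whose reads may be split. They did not share 1 direction, with 5 of 8 called higher in Huh7 and 1 in HepG2 (3 and 1 of the 5 in all 6 samples). MT1E measured 109.5, 93.2 and 87.6 FPKM in Huh7 and 27.1, 42.6 and 55.4 FPKM in HepG2 (log2 fold change 1.25 ± 0.25 SE, adjusted p = 0.00231), a call lost without HepG2 replicate 1 (log2 fold change 0.97). MT1G measured 16.2, 40.03 and 79.5 FPKM in HepG2 and 10.5, 9.97 and 7.67 FPKM in Huh7 (log2 fold change -1.90 ± 0.47 SE, adjusted p = 0.00756), and its HepG2 samples differed by more than a factor of 4. Of 76 genes of cytosolic ribosomal proteins, 21 were called higher in HepG2 and 1 in Huh7 (21 and 1 of the 73 in all 6 samples). Their median log2 fold change was -0.53, and their many pseudogenes leave single values uncertain. Of 62 nuclear genes of oxidative phosphorylation, 6 were called higher in Huh7 and 2 in HepG2 (5 and 2 of the 52 in all 6 samples), shares below those of all genes tested. Of 13 mitochondrially encoded genes listed, 5 were in the tables, with a summed level of 2.47 to 3.46 FPKM in Huh7 and 5.13 to 6.16 FPKM in HepG2. Neither of the 2 tested was called, and values so low say little about mitochondrial transcripts. Whether the counting sets them was not tested. Of 8 long non-coding RNAs in the tables, 1 passed the filter, through Huh7 alone. Of 7 cancer-testis genes tested, 4 were called higher in Huh7 and 2 in HepG2, and all 6 had passed through 1 line alone. BRDT, a bromodomain protein normally of the testis, had a mean of 20.97 FPKM in Huh7 and 0.0366 FPKM in HepG2, without overlap, and PRAME overlapped between the lines. Genes often used as references were not all level, with ACTB at 1638, 1508 and 918 FPKM in Huh7 and 560.0, 702 and 602 FPKM in HepG2 (log2 fold change 1.09 ± 0.25 SE, adjusted p = 0.00558), a call lost with median-ratio scaling (0.88) and without Huh7 replicate 1 (0.93) or 2 (0.99), while GAPDH was not called (-0.33).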
